A study of Homo sapiens with 12 samples.

Results

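NRF2 target genes are the genes of detoxification, glutathione, thioredoxin and NADPH metabolism that the transcription factor NRF2 switches on. The set described here holds 9 genes, which are NQO1, HMOX1, GCLC, GCLM, SLC7A11, TXNRD1, SRXN1 and PGD, and NFE2L2, the gene of NRF2 itself. They were taken by name, with every probe that the array's annotation pairs with them, and make up 9 of the 20046 genes that have a probe. The set was selected on the TC32 intensities of NQO1, which was already known to be far higher after PRKDC knockdown there, and was filled up with other known targets. The values of NQO1 in that comparison therefore describe how the set was chosen and carry no test, and the open question was whether the other 8 genes moved with it.

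In resting cells NRF2 is held by KEAP1, an adaptor of the CUL3 and RBX1 ubiquitin ligase, and is degraded. Electrophiles and oxidants modify KEAP1, NRF2 then escapes and pairs with small MAF proteins, and the pair binds the antioxidant response element of its targets. Control therefore acts largely on the NRF2 protein, which was not measured here, and less on the NFE2L2 transcript. Several targets also answer to other factors. NQO1 is a known target of the aryl hydrocarbon receptor (AhR), SLC7A11 of ATF4, and HMOX1 is held down by BACH1.

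Both cell lines are human, TC32 from an Ewing sarcoma and HCT116 from a colorectal carcinoma. They received either the control siRNA siNeg or siPRKDC, directed at PRKDC, at 20 nM. PRKDC is the gene of the catalytic subunit of DNA-dependent protein kinase, and RNA was taken after 48 h. The 4 groups were thus TC32 siNeg, TC32 siPRKDC, HCT116 siNeg and HCT116 siPRKDC, with 3 arrays each, and all cells had been transfected. All knockdown arrays carry the same siPRKDC label, so loss of PRKDC and any other action of that siRNA cannot be told apart. TC32 was grown in RPMI and HCT116 in DMEM, so line and medium cannot be told apart either. The labels do not say whether replicates were separate cultures. The p-values therefore reflect the spread among these particular arrays, and that spread may be technical.

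Illumina HumanHT-12 v4 arrays gave 47322 probe intensities each, and 10386 genes had a probe above background and were tested. The arrays detected 16324 to 16603 probes in TC32 siNeg, 15396 to 16216 in TC32 siPRKDC, 17658 to 17740 in HCT116 siNeg and 17101 to 18153 in HCT116 siPRKDC. The lower number in TC32 siPRKDC moves with the knockdown there, and its part in the results was not tested. PRKDC fell by 1.41 on the log2 scale in TC32 (adjusted p = 3.80e-08) and by 2.66 in HCT116 (adjusted p = 4.87e-11). These sizes depended on background correction, and without it PRKDC fell by 0.75 and by 1.38. They are of the brightest PRKDC probe. Its other kept probes fell by 0.86 and 0.92 in TC32 and by 0.78 and 0.73 in HCT116. On those probes limma did not call a difference between the lines (adjusted p = 0.760 and 0.370 over all kept probes). They were mostly below background after siPRKDC, which limits the fall they can show. The Ewing sarcoma markers CD99, NKX2-2, STEAP1, CCK and FLI1 were detected on all TC32 arrays, PAX7 on none, and NR0B1 had no probe paired with it. CD99 and STEAP1 were also detected on all HCT116 arrays. The epithelial markers EPCAM, CDH1, KRT8, KRT18 and KRT19 were detected on all HCT116 arrays, whereas CDX1 and VIL1 were detected on none. EPCAM, CDH1, KRT8 and KRT19 were not detected on any TC32 array, whereas KRT18 was detected on 1 of 3 TC32 siNeg and 3 of 3 TC32 siPRKDC arrays. KRT20 was detected on 1 of 3 HCT116 siNeg arrays, 3 of 3 HCT116 siPRKDC arrays and no TC32 array. After siPRKDC, 3 of 5 tested Ewing sarcoma markers and 1 of 6 epithelial markers were called higher in TC32, where 21.8% of all genes were. In HCT116 these counts were 0 and 4, where 9.20% of all genes were called higher. The part of these marker changes in the results was not tested.

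The antioxidant response element has a core that can be written TGACNNNGC, where N is any base, or GCNNNGTCA when it lies on the opposite strand. The core was searched on both strands of RefSeq promoter windows of build GRCh38.p14, which run from 250 bases before to 50 bases after each gene start. Windows were given for 7 of the 9 genes, and GCLM, TXNRD1 and PGD held a match. The 4 stretches that follow show places within these windows where the letters of the core can be seen. Each is written 5′ to 3′ on the strand of its gene, with the match in capitals.
GCLM, chr1:93909431-93909494, minus strand: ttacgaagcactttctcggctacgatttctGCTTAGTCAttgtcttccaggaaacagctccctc
TXNRD1, first start, chr12:104215650-104215718, plus strand: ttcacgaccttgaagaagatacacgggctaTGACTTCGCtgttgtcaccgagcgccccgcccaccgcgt
TXNRD1, second start, chr12:104286900-104286968, plus strand: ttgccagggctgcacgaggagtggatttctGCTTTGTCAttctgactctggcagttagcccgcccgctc
PGD, chr1:10398833-10398901, plus strand: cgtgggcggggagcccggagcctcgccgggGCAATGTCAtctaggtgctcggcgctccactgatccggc

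The first TXNRD1 window held a further match that lies close to the gene start. Of all 35116 windows, 13.3% held the core, against 4 of 9 windows of these genes, where the windows of TXNRD1 count separately. The windows of NQO1, GCLC, SRXN1 and NFE2L2 did not hold these letters, and no window was given for HMOX1 and SLC7A11. Sequence outside the windows was not searched, so a gene without a match here may hold the element elsewhere. A match describes the letters only. TXNRD1 and PGD, whose windows hold a match, rose after siPRKDC in TC32. GCLM, whose window also holds a match, was not called, and SRXN1, whose window holds none, rose.

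In TC32, 4 of the 8 genes other than NQO1 rose after siPRKDC, 1 fell and 3 were not called. TXNRD1 and SRXN1, both of the thioredoxin and peroxiredoxin system, rose most, by 1.25 and 0.94 on the log2 scale. PGD, an NADPH-producing enzyme, rose by 0.49 and GCLC, which starts glutathione synthesis, by 0.38. GCLM, SLC7A11 and HMOX1 were not called, and NFE2L2 fell by 0.25. Changes were widespread in this comparison, where 42.7% of all genes were called at an adjusted p below 0.05, 21.8% higher and 21% lower. The median log2 difference of the 8 genes was 0.20, against 0.01 over all 10386 genes tested.

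**Figure D1:**
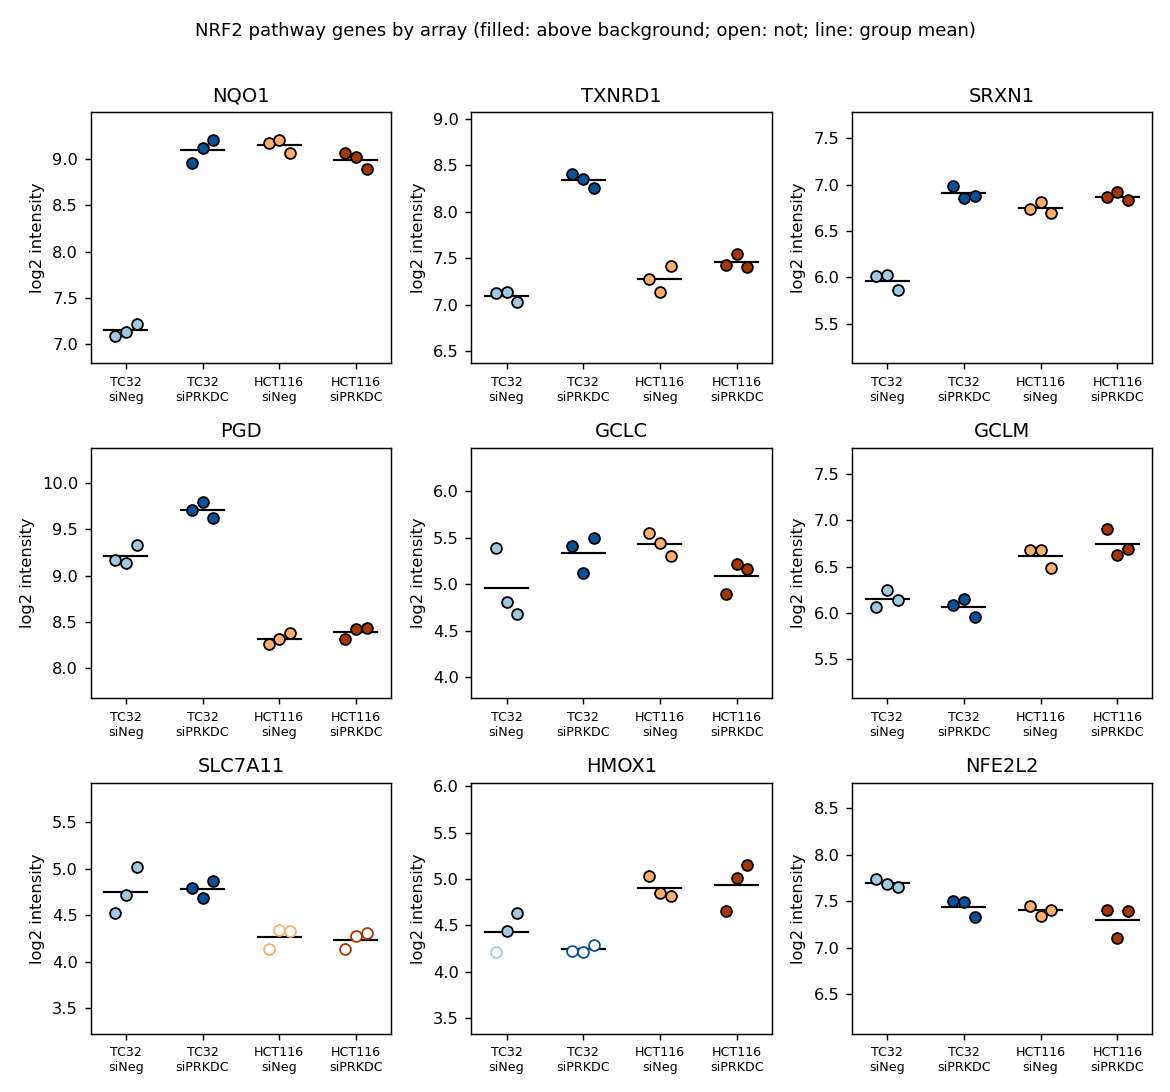
The log2 intensity of each of the 9 genes on each of the 12 arrays, in 4 groups of 3, with the group mean as a line. Filled points were above background and open points were not, and every panel spans the same number of log2 units. NQO1, TXNRD1 and SRXN1 are clearly higher on the TC32 siPRKDC arrays than on the TC32 siNeg arrays, and the means of the 2 HCT116 groups differ less than these rises in every panel.

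NQO1 encodes a flavoenzyme that reduces quinones by transferring a pair of electrons. Its log2 intensities were 7.09, 7.14 and 7.22 in TC32 siNeg and 8.95, 9.12 and 9.21 in TC32 siPRKDC. In HCT116 they were 9.17, 9.20 and 9.06 with siNeg and 9.06, 9.02 and 8.89 with siPRKDC. The TC32 siNeg arrays thus stood apart below the other 9, and the values of the other 3 groups overlapped. In order of their means, NQO1 stood at 9.14 ± 0.07 (SD, n = 3) in HCT116 siNeg, 9.09 ± 0.13 in TC32 siPRKDC, 8.99 ± 0.09 in HCT116 siPRKDC and 7.15 ± 0.07 in TC32 siNeg. With siPRKDC, the NQO1 level of TC32 came within the range seen in HCT116. As a description of the choice, the TC32 difference was 1.94, or 3.84-fold, which was rank 9 among the rises of all genes tested. The size depended on background correction, and without it the difference was 1.61. In HCT116, a comparison not used in the choice, the difference was -0.15 (SE 0.09, adjusted p = 0.296), with a 95% interval of -0.35 to 0.04. The other NQO1 probe was not above background on any array, with intensities of 66.6 to 74.5, so all of this rests on 1 probe. In bulk RNA, fewer cells with a transcript and less transcript per cell cannot be told apart.

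HMOX1 encodes heme oxygenase, which opens the heme ring and is one of the most inducible stress genes. It was close to background in TC32. Its log2 intensities were 4.21, 4.44 and 4.64 in TC32 siNeg, where 2 of 3 arrays detected it, and 4.23, 4.21 and 4.29 in TC32 siPRKDC, where none did. The groups overlapped, and HMOX1 was not called (adjusted p = 0.233). With siPRKDC below background, no size can be given. The bound from the group means was 1.01-fold lower, which is close to no change, and no direction is given. No rise like that of NQO1 was seen. In HCT116 all arrays detected HMOX1, at 5.04, 4.85 and 4.82 with siNeg and 4.66, 5.01 and 5.16 with siPRKDC. These values overlapped too, with a difference of 0.04 (adjusted p = 0.875) and a 95% interval of -0.21 to 0.29.

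The glutathione genes did not move together. GCLC and GCLM encode the catalytic and the modifier subunit of glutamate-cysteine ligase, the rate-limiting enzyme of glutathione synthesis, and SLC7A11 encodes the transport subunit of the cystine and glutamate exchanger. GCLC stood at 5.39, 4.81 and 4.68 in TC32 siNeg and at 5.41, 5.12 and 5.49 in TC32 siPRKDC. Replicate 1 of siNeg lay among the siPRKDC values, so the groups overlapped. GCLC rose by 0.38 (SE 0.14, adjusted p = 0.0390), but this call held in only 5 of 17 alternative analyses. Among the single arrays left out, siNeg replicates 2 and 3 gave adjusted p of 0.146 and 0.222, and siPRKDC replicates 1 and 3 gave 0.107 and 0.150, so that each ended the call. It was lost as well without background correction (0.0806) and in the authors' deposited log2 values (0.115), and without siNeg replicate 1 the difference was 0.59. Over all 17 alternatives its adjusted p ran from 9.02e-04 to 0.222.

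In HCT116, GCLC lay the other way round. Its values were 5.56, 5.44 and 5.30 with siNeg and 4.89, 5.21 and 5.17 with siPRKDC, and these groups did not overlap, as was the case for 35.2% of all genes. The difference of -0.34 was not called (adjusted p = 0.107). With the 2 HCT116 groups fitted alone it was called lower (adjusted p = 0.0293), the only one of 17 alternatives to do so. The second GCLC probe was not above background on any array.

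GCLM was not called in either line. It stood at 6.06, 6.25 and 6.14 in TC32 siNeg and at 6.09, 6.15 and 5.95 in TC32 siPRKDC, with a difference of -0.09 (adjusted p = 0.518). The 95% interval ran from -0.30 to 0.12, which leaves out a rise as large as that of PGD, SRXN1 or TXNRD1. Its second, dimmer probe differed by -0.01 (adjusted p = 0.964). In HCT116 the values of GCLM were 6.68, 6.67 and 6.49 with siNeg and 6.91, 6.63 and 6.69 with siPRKDC, and the difference of 0.13 was not called (adjusted p = 0.428).

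SLC7A11 was dim in both lines. In TC32 it was detected on all arrays, at 4.52, 4.72 and 5.02 with siNeg and 4.79, 4.69 and 4.87 with siPRKDC. The siPRKDC values lay within the siNeg range, and the difference was 0.03 (adjusted p = 0.858; 95% interval -0.20 to 0.26). In HCT116 no array of either group detected SLC7A11, so no fold is given. SLC3A2, the heavy chain that carries SLC7A11 and other transporters to the membrane, was looked at after its values were seen. It rose by 0.41 in TC32 (adjusted p = 0.00154) and by 1.04 on its other kept probe. In HCT116 it rose by 0.32 (adjusted p = 0.0228), a call lost with median scaling (0.126) or without siNeg replicate 1 (0.0540), 2 (0.0527) or 3 (0.0723) or siPRKDC replicate 1 (0.0866). Its other kept probe was not called there (0.28, adjusted p = 0.143 over all kept probes).

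The thioredoxin genes gave the clearest rises beside NQO1. TXNRD1 encodes cytosolic thioredoxin reductase, the selenoenzyme that recharges thioredoxin with electrons from NADPH. Its log2 intensities were 7.12, 7.14 and 7.03 in TC32 siNeg and 8.41, 8.36 and 8.26 in TC32 siPRKDC. On these background-corrected values, every siPRKDC array lay more than 1 log2 unit above every siNeg array. The difference was 1.25 (SE 0.09, adjusted p = 8.48e-10), or 2.37-fold, and took rank 44 among the rises of all genes. Over 17 alternatives it ran from 0.98 to 1.29. A second TXNRD1 probe gave 6.84, 6.86 and 6.87 against 8.06, 7.98 and 7.87, with a difference of 1.11 (adjusted p = 2.74e-08 over all kept probes). In HCT116 the brighter probe read 7.28, 7.14 and 7.42 with siNeg and 7.42, 7.55 and 7.41 with siPRKDC. There the groups overlapped, and the difference of 0.18 was not called (adjusted p = 0.204; 95% interval -0.02 to 0.38).

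SRXN1 encodes sulfiredoxin, which restores peroxiredoxins whose active cysteine has been over-oxidised. Its log2 intensities were 6.01, 6.02 and 5.86 in TC32 siNeg and 6.99, 6.86 and 6.87 in TC32 siPRKDC. The groups were far apart against their own spread, as 0.94 (SE 0.09, adjusted p = 2.26e-08), or 1.92-fold, and 0.57 without background correction. SRXN1 took rank 151 among the rises. In HCT116 the values were 6.73, 6.81 and 6.69 with siNeg and 6.86, 6.92 and 6.83 with siPRKDC. Each siPRKDC value there lay just above each siNeg value, but the difference of 0.13 was not called (adjusted p = 0.370). As with NQO1, the TC32 siPRKDC arrays came to the level of the HCT116 arrays, at 6.91 ± 0.07 against 6.74 ± 0.06 and 6.87 ± 0.05 (SD, n = 3 each).

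PGD encodes 6-phosphogluconate dehydrogenase, which makes NADPH in the oxidative pentose phosphate pathway. It stood at 9.17, 9.14 and 9.33 in TC32 siNeg and at 9.71, 9.79 and 9.62 in TC32 siPRKDC. The groups did not overlap, which held for 48.2% of all genes in this comparison, and PGD rose by 0.49 (SE 0.09, adjusted p = 1.51e-04), or 1.41-fold. In HCT116 the values were 8.26, 8.32 and 8.38 with siNeg and 8.32, 8.42 and 8.43 with siPRKDC. These overlapped, and the difference of 0.07 was not called (adjusted p = 0.661). Unlike NQO1 and SRXN1, PGD was higher in TC32 than in HCT116 under siNeg as well.

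NFE2L2, which encodes NRF2, did not rise with its targets. Its log2 intensities were 7.74, 7.69 and 7.65 in TC32 siNeg and 7.50, 7.49 and 7.34 in TC32 siPRKDC. All siPRKDC values were lower, and NFE2L2 fell by 0.25 (SE 0.10, adjusted p = 0.0413). This small fall passed in 10 of 17 alternatives and was lost with median scaling (adjusted p = 0.162). It was also lost on leaving out any 1 of the 6 TC32 arrays, with adjusted p of 0.111, 0.0754 and 0.0523 without siNeg replicates 1, 2 and 3 and of 0.0511, 0.0525 and 0.161 without siPRKDC replicates 1, 2 and 3. In HCT116 NFE2L2 stood at 7.45, 7.35 and 7.41 with siNeg and 7.41, 7.11 and 7.39 with siPRKDC, and the difference of -0.10 was not called (adjusted p = 0.539).

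**Figure D2:**
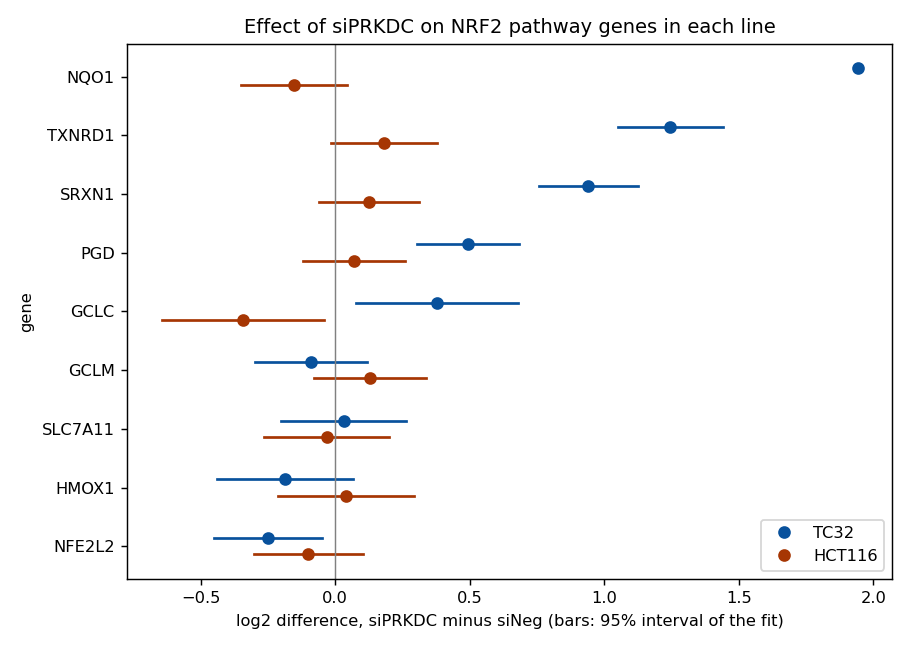
The log2 difference of siPRKDC minus siNeg for each gene in TC32 and in HCT116, with bars for the 95% interval of the limma fit. NQO1 in TC32 has no interval because that difference chose the set. TXNRD1, SRXN1, PGD and GCLC lie right of 0 in TC32 and NFE2L2 left of it, and in HCT116 the interval of GCLC alone leaves out 0, although GCLC was not called after adjustment. The points of SLC7A11 in HCT116 and of HMOX1 in TC32 rest on groups below background and do not measure a size.

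In HCT116, 0 of the 9 genes were called by limma, where 18.8% of all genes were called, 9.20% higher and 9.55% lower. Only GCLC had an unadjusted p below 0.05 (0.0270). The median difference of the 9 genes was 0.04, with a range of -0.34 to 0.18, SLC7A11 being counted at its value below background.

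The difference between the lines was tested directly, as the TC32 effect minus the HCT116 effect. Of the 8 genes other than NQO1, 4 were higher in this comparison and 0 lower, where 32.0% of all genes were called, 16.4% higher and 15.5% lower. TXNRD1 differed by 1.06 (SE 0.13, adjusted p = 3.19e-06) and SRXN1 by 0.82 (SE 0.13, adjusted p = 4.05e-05). GCLC differed by 0.72 (SE 0.20, adjusted p = 0.00972) and PGD by 0.42 (SE 0.13, adjusted p = 0.0159). These 4 calls held in all 22 alternatives, although without background correction GCLC differed by 0.28 and SRXN1 by 0.49. GCLC thus differed between the lines more steadily than it rose in TC32, with opposite signs in the 2 lines. GCLM (-0.22, adjusted p = 0.254) and NFE2L2 (-0.15, adjusted p = 0.429) were not called. HMOX1 and SLC7A11 were not called either, and no size is given for them, since no TC32 siPRKDC array detected HMOX1 and no HCT116 array SLC7A11. NQO1, with no test, differed by 2.10.

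**Figure D3:**
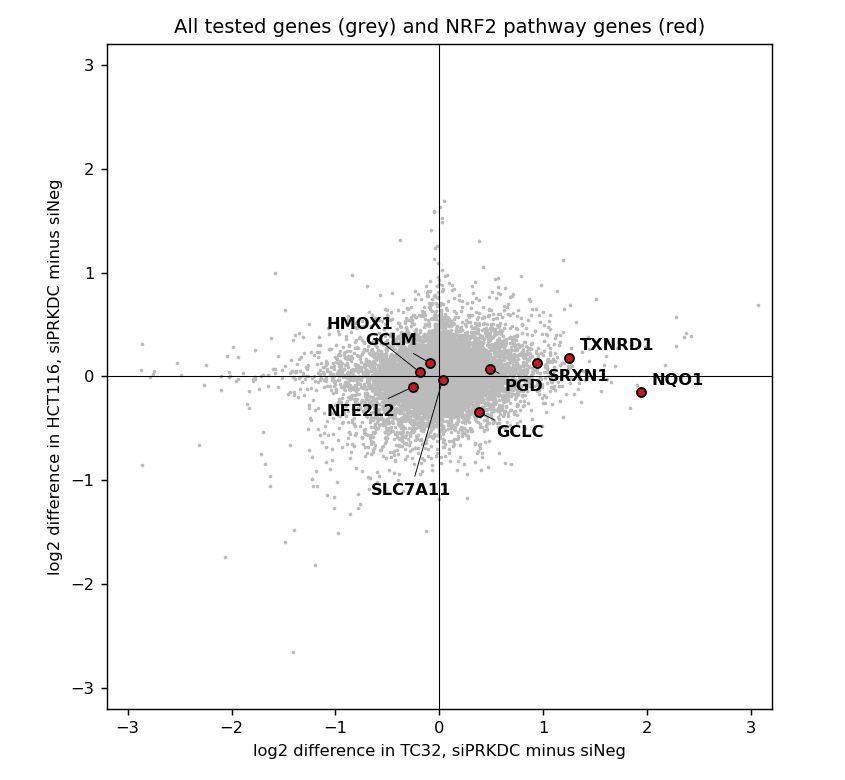
Each point is a gene, placed by its log2 difference of siPRKDC minus siNeg in TC32 (horizontal) and HCT116 (vertical), with the 10386 genes tested in grey and the 9 NRF2 pathway genes in red. NQO1, TXNRD1, SRXN1 and PGD lie to the right and close to the horizontal line, since their HCT116 differences are between -0.15 and 0.18, while GCLM, HMOX1, SLC7A11 and NFE2L2 lie inside the cloud, HMOX1 and SLC7A11 on values that were in part below background.

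Under siNeg the lines differed in most genes, in this set and over all genes tested. Of the 8 genes other than NQO1, by their brightest probe, 3 were called higher in TC32 siNeg than in HCT116 siNeg and 4 lower, among the latter GCLM, whose second probe went the other way. Here 66.2% of all genes were called, 30.1% higher and 36.1% lower. SRXN1 was lower in TC32 by 0.78 on the log2 scale (adjusted p = 8.25e-08), a value of -0.78 as TC32 minus HCT116. The same difference was -0.47 for GCLC (adjusted p = 0.00672) and -0.47 for HMOX1 (adjusted p = 0.00174). Without background correction these were -0.46 for SRXN1, -0.18 for GCLC and -0.16 for HMOX1, all still called. The call for GCLC was lost without TC32 siNeg replicate 3 (adjusted p = 0.0586). PGD was higher in TC32 by 0.89 (adjusted p = 1.40e-08) and NFE2L2 by 0.29 (adjusted p = 0.0115), but with median scaling NFE2L2 differed by 0.00 (adjusted p = 0.987). SLC7A11 was at least 1.31-fold higher in TC32, since no HCT116 array detected it (adjusted p = 6.41e-04). SLC7A11 was kept for testing only through its TC32 arrays, and HMOX1 only through its HCT116 arrays. Both enter the counts above, but that selection favoured their directions and p-values, which are a description. The probes of GCLM disagreed, with -0.46 for the brighter (adjusted p = 3.62e-04) and 0.34 for the dimmer (adjusted p = 0.0284), so no direction is given. TXNRD1 was not called on its brighter probe (-0.18, adjusted p = 0.0938). Its second probe was called lower in TC32 (-0.31, adjusted p = 0.0118 over all kept probes). For TXNRD1, 5 of 15 alternatives gave a call as lower in TC32. Among them were the fit without HCT116 siNeg replicate 2 (adjusted p = 0.0379) and the mean of all kept probes (adjusted p = 0.0205). Median scaling moved the median of all genes in this comparison from -0.06 to -0.21, and small differences between the lines are to be read against that shift. For NQO1 the difference was -1.99, given without a test because the TC32 siNeg arrays entered the choice.

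The proteins that control NRF2 were followed in a list of 11 regulators and partners, of which 9 were tested. In TC32, 3 rose and 1 fell, with a median of 0.08, where 21.8% of all genes rose and 21% fell, so that these counts are near the background. SQSTM1 encodes p62, which binds KEAP1 and is itself an NRF2 target, and it rose by 0.45 (adjusted p = 2.59e-04). RBX1, of the ligase that degrades NRF2, rose by 0.30 (adjusted p = 0.0168), a call lost without siNeg replicate 3 (0.0724) or siPRKDC replicate 1 (0.0933). CUL3, the scaffold of that ligase, was at least 1.08-fold higher after siPRKDC, as no siNeg array detected it (adjusted p = 0.0196). CUL3 was kept for testing only because all TC32 siPRKDC arrays detected it. That selection favoured its rise and p, which are a description. GSK3B, a kinase that marks NRF2 for degradation apart from KEAP1, fell by 0.28 (adjusted p = 0.0245). The call for CUL3 was lost in 6 of 16 alternatives, with adjusted p of 0.0553 without siNeg replicate 1 and 0.0812 without siPRKDC replicate 3. The call for GSK3B was lost with median scaling (0.0746) and without siNeg replicate 1 (0.0763), siNeg replicate 3 (0.0729), siPRKDC replicate 1 (0.0578) or siPRKDC replicate 3 (0.0585).

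In HCT116, 0 of the 9 regulators rose and 2 fell, with a median of -0.15, where 9.20% of all genes rose and 9.55% fell. SQSTM1 fell there, by 0.48 (adjusted p = 5.32e-04), and the TC32 effect exceeded that in HCT116 by 0.93 (SE 0.13, adjusted p = 7.77e-06), a comparison picked after its values were seen. BTRC, the adaptor that acts after GSK3B, fell by 0.33 (adjusted p = 0.0162), and 1 of the 3 siPRKDC arrays still detected it. BTRC was kept for testing only because all HCT116 siNeg arrays detected it. That selection favoured this fall and its p, which are a description. Its call held in 9 of 16 alternatives and was lost without siNeg replicate 1 (0.0504), siNeg replicate 3 (0.0623), siPRKDC replicate 1 (0.0676) or siPRKDC replicate 3 (0.0565).

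A wider list of 32 further NRF2 targets, 23 of them tested, did not move one way. In TC32, 6 rose, 5 fell and 12 were not called, with a median of 0.14, where 21.8% of all genes rose and 21% fell, so that the counts are near the background. FECH, which inserts iron into heme, rose by 0.75 (adjusted p = 8.25e-07). The aldo-keto reductase gene AKR1B10 was at least 1.40-fold higher, since no siNeg array detected it (adjusted p = 2.14e-06). It was kept for testing only because all TC32 siPRKDC arrays detected it. That selection favoured this rise and its p, which are a description. PIR, the gene of the iron-binding protein pirin, fell by 1.08 (adjusted p = 2.66e-08) and by 0.83 on its second probe. CBR3, a carbonyl reductase, fell by 1.03 (adjusted p = 3.02e-07).

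The other called genes of the list were named after their values were seen. TXN, the thioredoxin that TXNRD1 recharges, rose by 0.53 (adjusted p = 1.85e-04) and by 0.33 on its second probe. FTL, the ferritin light chain, rose by 0.35 (adjusted p = 0.00362) and by 0.60 on its second probe. GSTP1, a glutathione transferase, rose by 0.41 (adjusted p = 0.00388). AKR1C3 rose by 0.84 (adjusted p = 7.73e-06), but it has close paralogs that its probe could also read. ME1 and IDH1, which like PGD make NADPH in the cytosol, fell, with differences of -0.67 (adjusted p = 8.08e-06) and -0.64 (adjusted p = 1.32e-05). The second probe of IDH1 fell by 0.31. TKT, of the non-oxidative pentose phosphate branch, fell by 0.46 (adjusted p = 3.24e-04).

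In HCT116 the same list had 2 genes up and 3 down of 23, with a median of -0.01, again near the 9.20% and 9.55% of all genes. IDH1 (-0.54, adjusted p = 3.74e-04) and PIR (-0.56, adjusted p = 4.79e-04) fell there too. The export pump gene ABCC2 rose by 0.43 (adjusted p = 0.00140). FTL fell by 0.41 (adjusted p = 0.00232). The TC32 effect on it was higher than the HCT116 effect by 0.76 (SE 0.13, adjusted p = 1.03e-04), a comparison picked after its values were seen. AKR1C3 rose by 0.41 (adjusted p = 0.0195), a call lost without the filter on dim probes (0.0574) and without siNeg replicate 1 (0.118), siNeg replicate 3 (0.0833) or siPRKDC replicate 1 (0.130).

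**Figure D4:**
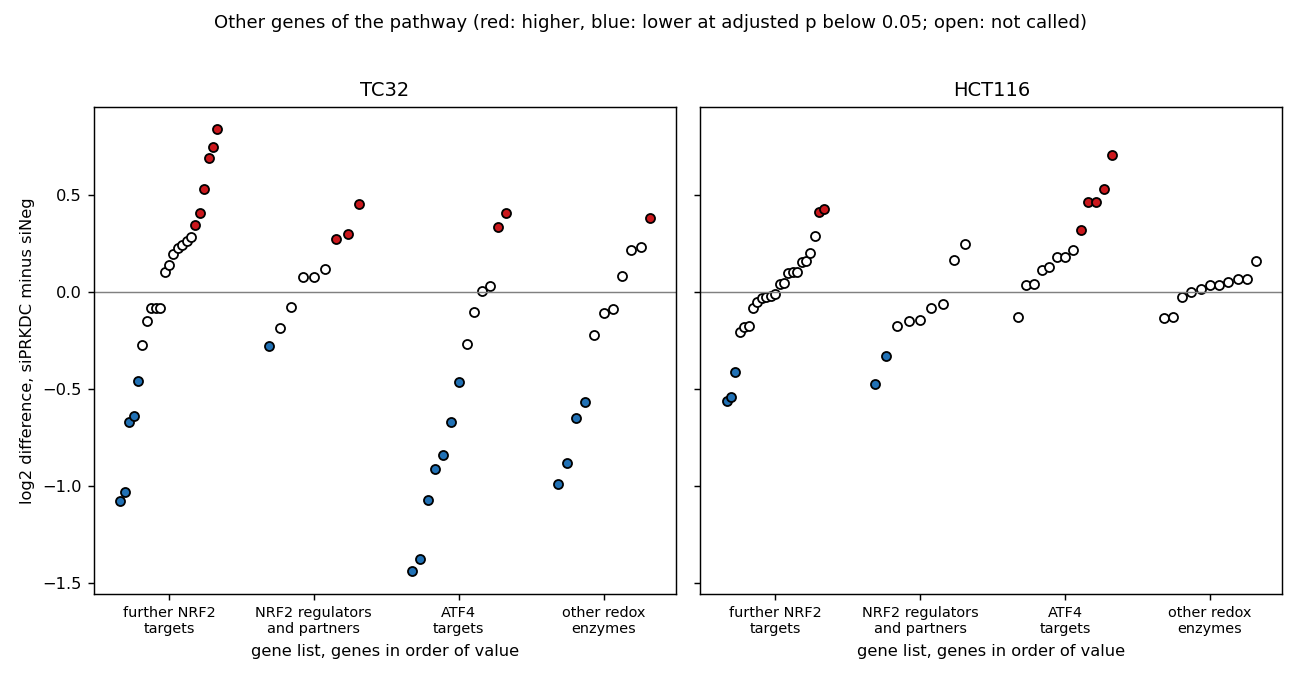
The log2 difference of siPRKDC minus siNeg for each tested gene of 4 lists in TC32 (left) and HCT116 (right), with the genes of a list in order of value. Red and blue points were called higher and lower, and open points were not called. The further NRF2 targets have 6 red and 5 blue points in TC32. The ATF4 targets, a list that includes ATF4 itself, have 7 blue points in TC32 and 5 red points in HCT116.

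Of 7 AhR targets, only TIPARP, which represses the AhR, was tested. It fell by 0.49 in TC32 (adjusted p = 2.39e-04) and was not called in HCT116 (0.11, adjusted p = 0.485). The list of ATF4 targets also holds ATF4 itself. Of its 13 tested genes, 2 rose and 7 fell in TC32, with a median of -0.46, where 21.8% of all genes rose and 21% fell. ATF4 was among the falls (-0.67, adjusted p = 1.57e-05). The falls with the smallest p were those of TRIB3 (-1.38, adjusted p = 7.62e-10), ASNS (-1.07, adjusted p = 2.90e-08), CTH (-1.44, adjusted p = 8.86e-08) and PHGDH (-0.84, adjusted p = 2.17e-07). The other kept probes of CTH fell by 0.72 and by 0.63. Besides SLC3A2, the amino acid transporter gene SLC7A5 rose there, by 0.34 (adjusted p = 0.00614). In HCT116, 5 of the 13 genes of the ATF4 list rose and 0 fell, where 9.20% of all genes rose and 9.55% fell. ATF4 itself was not called there (0.21, adjusted p = 0.160). Among those that rose were PSAT1 (0.71, adjusted p = 1.23e-05), SLC7A5 (0.46, adjusted p = 0.00124), ATF3 (0.53, adjusted p = 0.00190) and, on 1 of its 2 probes, ASNS (0.46, adjusted p = 0.00266). ASNS, picked after its values were seen, differed between the lines by -1.54 (SE 0.15, adjusted p = 7.40e-08).

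Of 11 tested antioxidant enzymes outside these lists, 1 rose and 4 fell in TC32, with a median of -0.11, where 21.8% of all genes rose and 21% fell. In HCT116 limma called 0 of them, where 18.8% of all genes were called, and 0 had an unadjusted p below 0.05. In TC32 TXNRD2, the mitochondrial counterpart of TXNRD1, fell by 0.99 (adjusted p = 5.36e-07), and GLRX, glutaredoxin, fell by 0.88 (adjusted p = 6.09e-08). GPX1, a glutathione peroxidase, fell by 0.65 (adjusted p = 7.23e-06), and SOD2, mitochondrial superoxide dismutase, by 0.57 on 1 of its 2 probes (adjusted p = 9.88e-05). PRDX6, a peroxiredoxin named after its values were seen, rose by 0.38 (adjusted p = 0.00245).

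Over the 12 arrays, with each gene centred on its own mean, the genes nearest to NQO1 were PDK3, TPRG1L, SYNCRIP and RNFT2. Their root mean square distances were 0.274, 0.289, 0.301 and 0.331 on the log2 scale. These genes share the arrays and their normalization with NQO1, and the distances are a description. SRXN1 was the nearest of the set at 0.479, rank 68 of all genes. TXNRD1, which went above its HCT116 level in TC32 siPRKDC, came next of the set at 0.716, but only at rank 1611. PGD was the farthest, at 1.15 and rank 9173.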

How the data were processed

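The 12 samples (3 per group) were assigned from their titles. The deposited intensity of a probe is its mean brightness before any background subtraction or normalization. Per the file headers, each comes with a detection p-value. The authors also deposited log2 values, whose sorted values match within each line, so that they are quantile normalized per line; these served as an alternative. The submitters' processing notes name GenomeStudio, R 3.0.2 and lumi, with no other version given in the sources used here.

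Normalization used neqc of limma 3.58.1 in R 4.3.3 (offset 16, background inferred from detection p-values, quantile normalization over 12 arrays). Probes stayed in where every one of the 3 arrays of some group had a detection p below 0.05, which kept 16555 probes, 13396 of them with 1 gene. Of all probes, 30113 had 1 gene, 8 several and 17201 none. A gene stood for its brightest kept probe, giving 10386 genes, and 11 of the 13 probes of the NRF2 set were kept. A cell-means model over 4 groups was fitted with lmFit and eBayes (degrees of freedom: 8 residual, 13.5 prior). The two-sided p-values received a Benjamini-Hochberg adjustment over all genes, or over all kept probes for second probes. An adjusted p below 0.05 was called. A group in which no array detected a probe gives a bound, taken against the lowest signal among detected probes or the probe's own. With 3 against 3, an exact permutation test cannot go below 0.1, so none was used. The fit was also run on simulated log2 values, with far fewer changed genes than were called in TC32. Those values did not pass through background correction or normalization, so these steps were not checked.

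Members, lists, tests and the naming rule were chosen with earlier results of these data known. The rule names the 9 genes and PRKDC, up to 4 genes of each list with the smallest p per knockdown comparison, and the 4 genes nearest to NQO1. No chip or scan batch is given in the labels or files used here. Precision is limited by the number of arrays, and dim probes by background.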

Additional observations from a re-analysis of the deposited data

Results flagged for a closer look

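The effect of siPRKDC differed between TC32 and HCT116 in 4 genes of the set and in 3 genes picked after their values were seen. The test was of the difference itself (limma, Benjamini-Hochberg over all genes, where 32.0% of genes pass). These 7 are not all that passed. In the same comparison 6 of 23 further NRF2 targets were higher and 4 lower. Of 13 genes in the ATF4 list, 0 were higher and 8 lower. Of 9 regulators 3 were higher and 1 lower, and of 11 other antioxidant enzymes 0 and 4. The TC32 effect minus the HCT116 effect was 1.06 for TXNRD1, 0.82 for SRXN1, 0.72 for GCLC and 0.42 for PGD. For the other 3 genes the effects had opposite signs and were called in both lines. Their difference between the lines follows largely from this and is a description. SQSTM1 differed by 0.93, FTL by 0.76 and ASNS by -1.54, where the HCT116 rise of ASNS rested on 1 of its 2 probes. Line and growth medium cannot be told apart in any of these.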

How the results depend on the processing

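Over 23 alternatives, 1402 values of single genes and 213 counts were recomputed. Of the gene values, 1325 kept their direction and side of the threshold, 52 lost and 6 gained a call, 10 (all NQO1) moved by more than the replicate spread, and 9 changed sign; of the counts, 204 stayed within 1.5 times. The rises of TXNRD1, SRXN1 and PGD in TC32 passed in all 17 alternatives. The number of genes lower in TC32 became 0 with median scaling and ranged from 0 to 0 without 1 array, as NFE2L2 was lost, and the number lower in HCT116 became 1 with the 2 groups alone (GCLC). With detection p below 0.01 on all 12 arrays, 6425 genes were tested, of which 4398 differed between the lines under siNeg, and HMOX1 and SLC7A11 were not measured. The sign changes were in values that were not called. With median scaling PGD in HCT116 was -0.046 and the NFE2L2 difference between lines 0.0084. HMOX1 in HCT116 ranged from -0.068 to 0.18 without 1 array (-0.0032 without siNeg replicate 3), and SLC7A11, which no HCT116 array detected so that its values there give no direction or size, ranged from -0.098 to 0.0196 in HCT116 (0.0031 without siNeg replicate 2), from -0.083 to 0.16 in TC32 (-0.012 without siPRKDC replicate 3) and from -0.051 to 0.20 between lines. The cause was not tested.

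NQO1 in TC32 was 1.61 without background correction, 1.72 with an offset of 50 and 1.62 in the authors' deposited values. Without background correction 23 called differences kept their call but were more than 1.5 times smaller. Beside those given in the report, these were 0.26 for AKR1B10, 0.52 for AKR1C3, -0.61 for CBR3, -0.68 for CTH, 0.44 for FECH, -0.16 for GSK3B, -0.39 for ME1, -0.35 for SOD2, -0.87 for TRIB3 and -0.42 for TXNRD2 in TC32, 0.21 for ABCC2, 0.20 for AKR1C3 and 0.25 for ATF3 in HCT116, and -0.28 for GCLM and 0.17 for SLC7A11 between lines under siNeg. Median scaling moved the share of higher genes among those called from 49.1% to 32.5% in HCT116, from 51.4% to 63.6% for the difference between lines and from 45.4% to 30.7% between lines under siNeg.

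Replicate numbers are shared between groups. Same-numbered arrays deviated together with correlations of 0.02, 0.05 and 0.11 in TC32 and 0.0016, 0.06 and 0.05 in HCT116. These were small but all positive, and whether such arrays share more than a number cannot be told from them. Of 12 arrays, 8 correlated best with the array of their own number. With a replicate block, 4541 genes were called in TC32, 2010 in HCT116 and 3389 for the difference between lines, and no call among the 9 genes changed. The authors' values, normalized per line, and the block were not run between lines under siNeg.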
